A study of Mus musculus with 6 samples.

Results

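The transcripts described here are those of 8 G protein-coupled receptors through which resolvins, lipoxins, formyl peptides, chemerin and leukotriene B4 act on leukocytes. They were taken by gene symbol (Gpr18, Fpr1, Fpr2, Cmklr1, Lgr6, Gpr37, Ltb4r1 and Ltb4r2) from a table of 19973 genes. No cutoff on a measured value was used, but earlier results of these data were known when the genes were chosen. Of the 8, 6 have values here, 4 of these reached the mean of 10 normalized counts that the test asked for, and Lgr6 and Gpr37 were not analysed. The RNA came from peritoneal macrophages of male C57BL/6 mice, an inbred laboratory strain, aged 18 months (old, n = 3 libraries) or 2 months (young, n = 3 libraries). Every mouse of both ages had received 200 µg of zymosan A, a yeast cell wall preparation, into the peritoneal cavity. Cells were lavaged after 72 hours, cultured overnight in medium containing L-cell medium, washed free of unattached cells and kept for 6 hours in the phosphate-buffered saline vehicle. Attachment was the only selection for macrophages that the labels describe. Each age had 3 mice and the RNA of a mouse was sequenced in triplicate, and the labels do not tie a library to a mouse. The p-values therefore reflect only how far these libraries differ among themselves, and that spread may be technical.

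The resolution of inflammation is an active programme in which lipid mediators made from polyunsaturated fatty acids stop neutrophil entry and promote the clearance of dead cells by macrophages. Gpr18 is the receptor for resolvin D2, and it is named in the title of the series. Fpr2 binds lipoxin A4, resolvin D1 and the protein annexin A1, its relative Fpr1 senses formylated bacterial and mitochondrial peptides, and Cmklr1 binds chemerin and resolvin E1. Ltb4r1 and Ltb4r2 are the high- and low-affinity receptors for leukotriene B4, a strong neutrophil attractant, while Lgr6 and Gpr37 have been described as receptors for maresin 1 and protectin D1.

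Fpr1 (chromosome 17, 17876471 to 17883940, minus strand) and Fpr2 (chromosome 17, 17887824 to 17893952, plus strand) lie head to head with 3884 bases between their starts. Gpr18 (chromosome 14, 121911253 to 121915781, minus strand) lies within a single intron of 7882 bases of Ubac2, which runs on the plus strand, and shares no exonic base with it. Cmklr1 is on chromosome 5 (113612354 to 113650426, minus strand). Ltb4r2 and Ltb4r1 follow each other on the plus strand of chromosome 14 (55761428 to 55765138 and 55765962 to 55768494) with 824 bases between the end of the first and the start of the second. All positions are for GRCm38, the assembly that mm10 names. The 250 bases before the start that RefSeq gives for 4 of these genes on GRCm38.p6 are shown because Fpr1, Fpr2 and Cmklr1 were all higher in old cultures and because Gpr18 starts inside another gene. For Cmklr1 the RefSeq start lies inside the span given above, which is from GENCODE. Capitals mark matches, on either strand, to 5 short patterns: the core GAGGAA of PU.1, a factor of myeloid cells; the AP-1 site TGANTCA; the C/EBP pattern TTNNGCAA; the interferon response pattern, which is GAAA, any 2 bases and GAAA; and the TATA box TATAAA.
Fpr1, chr17:17883940-17884189, minus strand: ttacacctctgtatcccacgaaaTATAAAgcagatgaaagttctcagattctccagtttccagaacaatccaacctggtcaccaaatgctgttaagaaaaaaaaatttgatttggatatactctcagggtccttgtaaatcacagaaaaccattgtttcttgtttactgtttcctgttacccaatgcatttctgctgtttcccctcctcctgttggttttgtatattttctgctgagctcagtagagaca
Fpr2, chr17:17887574-17887823, plus strand: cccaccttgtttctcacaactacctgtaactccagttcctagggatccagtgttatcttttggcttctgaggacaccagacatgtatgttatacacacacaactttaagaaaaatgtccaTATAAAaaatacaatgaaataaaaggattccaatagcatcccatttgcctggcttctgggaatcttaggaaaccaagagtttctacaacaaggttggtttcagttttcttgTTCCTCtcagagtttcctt
Cmklr1, chr5:113643604-113643853, minus strand: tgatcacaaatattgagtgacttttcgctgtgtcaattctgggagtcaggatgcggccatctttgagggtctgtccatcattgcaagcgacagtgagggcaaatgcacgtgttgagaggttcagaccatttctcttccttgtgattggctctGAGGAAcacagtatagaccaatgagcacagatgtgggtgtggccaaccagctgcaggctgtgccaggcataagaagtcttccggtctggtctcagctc
Gpr18, chr14:121915889-121916138, minus strand: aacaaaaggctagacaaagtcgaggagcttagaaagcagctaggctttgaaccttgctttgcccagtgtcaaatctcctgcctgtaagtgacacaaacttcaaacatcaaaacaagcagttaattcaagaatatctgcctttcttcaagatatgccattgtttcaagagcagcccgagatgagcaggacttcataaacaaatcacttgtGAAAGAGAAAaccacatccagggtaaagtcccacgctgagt

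The Fpr2 window held a PU.1 core at bases 19 to 14 before the start and TATAAA at bases 130 to 125. That of Fpr1 held TATAAA at bases 227 to 222, and that of Cmklr1 a PU.1 core at bases 98 to 93. The Gpr18 window held 1 interferon response pattern at bases 41 to 32. No marked matches overlapped each other. Of 32851 mouse promoter windows of this length, 23.3% held the PU.1 core, 12.4% TATAAA, 9.56% the C/EBP pattern, 6.75% the AP-1 site and 2.98% the interferon response pattern. The 3 windows of genes that were higher in old shared no one pattern, and a match is a description of letters only.

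Recovered reads per library totalled 8163016 to 13007604. The ages separated on a first principal component with 71.5% of the variance. On the second, with 18.2%, both libraries numbered 3 stood apart from their groups, the old one at -37.7 and the young one at 25.3. They also lay nearer the other age on the first component. Old replicate 3 was at -26.2 (replicates 1 and 2 at -46.2 and -46.1) and young replicate 3 at 30.7 (45.1 and 42.7). Of the 7 macrophage markers listed, all were detected, with a summed level of 341388 to 425689 normalized counts in old and 272580 to 347334 in young libraries. Markers of other cells were lower but not absent. The 8 B cell markers summed to 1368 to 2658 in old and 120 to 122.7 in young libraries, and the 6 mast cell markers to 527 to 591.5 and 38.22 to 62.3. In bulk RNA, fewer cells of a type and less RNA per cell cannot be told apart.

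Fpr2 showed the clearest age difference of the receptors, Fpr1 a smaller one and Cmklr1 the smallest of the 3 that passed the test. Of the 4 tested receptors, 3 passed as higher in old cultures and 0 as lower, with the limma test at an adjusted p of 0.05. Over all 11795 genes tested, 35.5% passed, 17.9% as higher and 17.6% as lower, and the median difference was 0.00 on the log2 scale. The same 3 receptors had every old library above every young one, which held for 24.0% of the tested genes.

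The Fpr2 level was 877.1, 905.2 and 859.8 normalized counts in the old libraries, in replicate order, against 378.2, 411.5 and 514.6 in the young. The groups did not overlap, and young replicate 3 was the highest of its group. The means were 880.7 ± 22.9 and 434.8 ± 71.1 (SD, n = 3 each), a 2.03-fold difference. On the scale of log2(normalized count + 1) the difference was 1.03 ± 0.11 (SE; limma adjusted p = 8.24e-05). Part of this gene's sequence is not unique. Of 1295 windows of 50 bases along its transcripts, 31.5% also occur in transcripts of other genes, 28.4% in Gm5966 and 6.33% in Fpr3, neither analysed here, and the sources used here do not say how such reads were assigned. The Fpr2 level is uncertain to that extent.

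Fpr1 had 1625, 1733 and 1466 normalized counts in the old and 904.3, 976.6 and 1161 in the young libraries. Again every old library lay above every young one, with young replicate 3 the nearest to the old group. The means of 1608 ± 134 and 1014 ± 132 (SD, n = 3 each) differed 1.59-fold, or 0.67 ± 0.10 on the log2 scale (SE; limma adjusted p = 0.000842). Only 0.0784% of its 50-base windows occur in another gene. The ratio of Fpr2 to Fpr1 reads, which does not depend on the size factor of a library, was 0.54, 0.522 and 0.587 in old and 0.418, 0.421 and 0.443 in young libraries. The 2 groups of ratios did not overlap (two-sided exact permutation p = 0.1, the smallest that 3 against 3 can give), so the balance between the neighbouring receptors was shifted toward Fpr2 in each old library.

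Cmklr1 had 1820, 1933 and 1915 normalized counts in old and 1458, 1495 and 1595 in young libraries. The groups were narrow and did not overlap. The means of 1889 ± 60.7 and 1516 ± 71.3 (SD, n = 3 each) differed 1.25-fold, or 0.32 ± 0.07 on the log2 scale (SE; limma adjusted p = 0.00458).

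**Figure D1:**
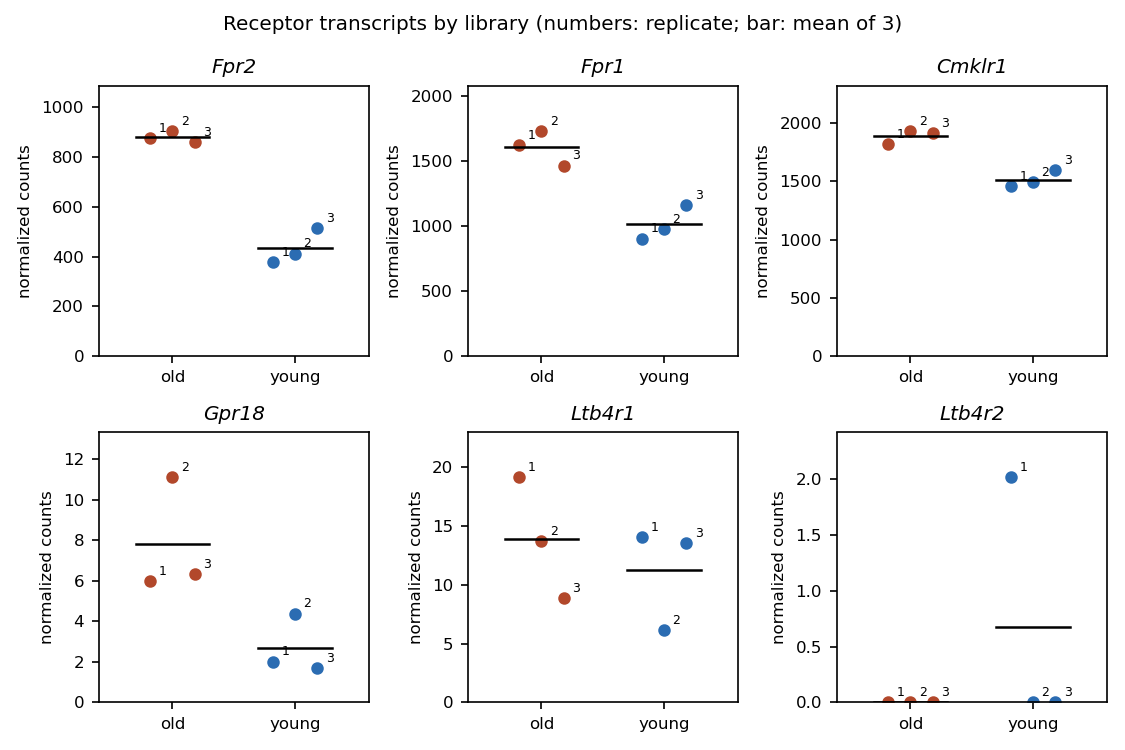
Normalized counts (vertical axes, each from 0) of the 6 receptors with values, by library, for old (red) and young (blue) cultures; small numbers give the replicate and bars the mean of 3 libraries. Fpr2, Fpr1, Cmklr1 and Gpr18 show no overlap between the ages, whereas Ltb4r1 overlaps and Ltb4r2 has reads in young replicate 1 alone.

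Per kilobase of annotated exon, the order of the receptors differed between the ages. In old libraries Fpr1 stood highest at 1107 to 1309 normalized counts per kilobase, followed by Fpr2 at 663.5 to 698.5 and Cmklr1 at 534 to 567.1. In young libraries Fpr1 again stood highest at 683 to 876.9, but Cmklr1 at 427.7 to 468.1 lay above Fpr2 at 291.8 to 397.1. None of these neighbouring ranges overlapped. The exon lengths include sequence shared with other genes, which holds 31.5% of the 50-base windows of Fpr2. How such reads were assigned is not given, so the place of Fpr2 in either order is uncertain to that extent. Ltb4r1 followed at 6.378 to 13.72 in old and 4.406 to 10.1 in young libraries, and Gpr18 at 3.989 to 7.418 and 1.128 to 2.929, so these 2 could not be ordered in old cultures. By the mean over all libraries on the per-kilobase scale, Fpr1 exceeded 97.6% of the protein-coding genes listed, Fpr2 94.5% and Cmklr1 94.4%, against 29.1% for Ltb4r1 and 23.4% for Gpr18.

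Most of the macrophage markers were higher in old libraries. Of the 7, 5 passed as higher and 0 as lower, with a median log2 difference of 0.37, against 17.9% higher over all tested genes. Adgre1 and Lyz2 did not pass (limma adjusted p = 0.0738 and 0.22). Csf1r, the receptor for macrophage colony-stimulating factor, had 19134 to 20131 normalized counts in old and 15854 to 17445 in young libraries, a log2 difference of 0.26 ± 0.08 (SE; limma adjusted p = 0.038). Each receptor was therefore also set against Csf1r within its library, a comparison chosen after the values were seen.

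Per Csf1r read, the Cmklr1 ratio was 0.0904, 0.0967 and 0.1 in old and 0.0919, 0.0917 and 0.0915 in young libraries. The groups overlapped, the means differed 1.04-fold, and the two-sided exact permutation p was 0.4. Against the 7 markers in turn, the old-to-young ratio of Cmklr1 ranged from 0.739 (Cd68) to 1.04 (Csf1r), with overlapping groups for 6 markers and higher ratios in young for 1. For none of the 7 markers did every old library have a higher Cmklr1 ratio than every young one.

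Fpr2 stayed higher in old by this measure. Its ratio to Csf1r was 0.0436, 0.0453 and 0.0449 in old and 0.0239, 0.0252 and 0.0295 in young libraries, 1.7-fold apart (two-sided exact permutation p = 0.1). Over the 7 markers it ranged from 1.21 to 1.7, and the old libraries lay above the young ones for all 7. Fpr1 stood between. Its old-to-young ratio was 1.15 or more against 6 markers and 0.94 against Cd68, for which the young libraries lay above the old.

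**Figure D2:**
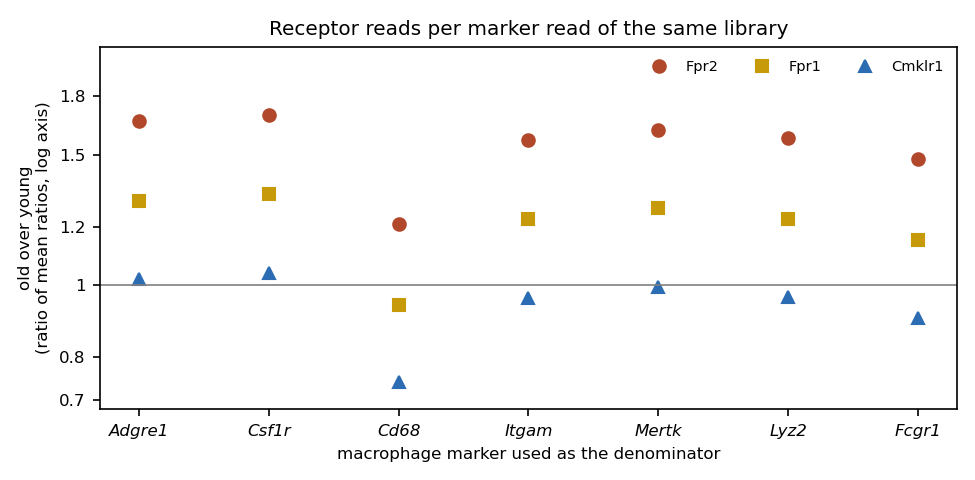
Ratio of the mean in old to the mean in young libraries (log axis) of receptor reads divided by the reads of 1 macrophage marker in the same library, for Fpr2, Fpr1 and Cmklr1 against each of 7 markers (horizontal axis). Fpr2 lies above 1 throughout, Fpr1 for every marker but Cd68, and Cmklr1 lies between 0.739 and 1.04.

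Fpr1 and Fpr2 are also neutrophil genes. Of the 10 neutrophil markers listed, 4 have values here, and these summed to 994.5 to 1103 normalized counts in old and 488.4 to 495.9 in young libraries. The sum came almost wholly from S100a8, a calcium-binding protein gene (509.3 to 653.1 in old, 184.1 to 238.3 in young), and Csf3r, the receptor gene for granulocyte colony-stimulating factor (419.4 to 483.9 in old, 250.1 to 311.8 in young), both of which monocytes and macrophages can also express. S100a8 and Csf3r passed as higher in old, with log2 differences of 1.46 and 0.70 (limma adjusted p = 1.96e-05 and 0.000627). The chemokine receptor gene Cxcr2 and the granule gene Ltf had at most 1.27 normalized counts in any library. The other 6 markers listed were not analysed. The part of these cells in the Fpr1 and Fpr2 differences was not tested.

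Gpr18 was detected in each library, but at the level of single reads. The counts were 5, 13 and 5 reads in old and 2, 5 and 2 in young libraries, or 5.975, 11.11 and 6.35 against 2.012, 4.387 and 1.69 normalized counts. Old replicate 2, the deepest library, held 13 of the 23 old reads, and the lowest old library lay above the highest young one. The means were 7.81 ± 2.86 and 2.70 ± 1.47 normalized counts (SD, n = 3 each). The two-sided exact permutation p was 0.1, the smallest that 3 against 3 can give. Among the 8178 genes under the filter, 7.23% likewise had all old above all young libraries.

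How closely so few reads fix the level can be stated. The exact Poisson 95% interval of old replicate 1 ran from 1.62 to 11.7 reads and that of young replicate 1 from 0.242 to 7.22, so these intervals overlapped. Summed over libraries, 23 old reads (14.6 to 34.5) stood against 9 young reads (4.12 to 17.1), and the ratio per size factor was 3.03 with an exact conditional interval of 1.35 to 7.45. These intervals cover counting error only and not the spread between mice. In a fit of all genes without the filter, in which 10.8% of genes passed as higher in old, the log2 difference was 1.28 ± 0.51 (SE; limma adjusted p = 0.104). It was 1.49 by edgeR (adjusted p = 0.108) and 1.55 by DESeq2 (adjusted p = 0.234) on the recovered reads. With the unfiltered fit restricted to protein-coding genes, of which 16.9% passed as higher, the adjusted p from limma was 0.0341, and over the other alternatives it ranged from 0.093 to 0.261. Without old replicate 2 the log2 difference was 1.02 (limma adjusted p = 0.261).

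Gpr18 is also expressed by lymphocytes, whose markers had higher sums in old libraries. The B cell markers summed to 2343, 2658 and 1368 normalized counts in old replicates 1, 2 and 3 and the T and NK cell markers to 81.26, 101.7 and 60.96. In young libraries the T and NK sum was 7.605 to 13.16. Old replicate 2, with the most Gpr18, had the highest sum of both lists. Old replicates 1 and 3 held 5 Gpr18 reads each, too few to order them, and replicate 3 had the lower sums. Most of the B cell sum in old came from Ighm, with 1575, 1803 and 844.6 normalized counts in replicates 1, 2 and 3. All 8 B cell markers passed as higher in old, against 17.9% of all tested genes. Of the 10 T and NK markers with values, 1 reached the filter and passed as higher. None of these markers was at 0 in all libraries. The part of these cells in the Gpr18 reads was not tested. Ubac2, whose intron holds Gpr18 and whose reads cannot be told from Gpr18 by strand here, had 315 to 362.4 normalized counts in old and 261.5 to 353.2 in young libraries and did not pass (log2 difference 0.14, limma adjusted p = 0.39). Gpr183, the oxysterol receptor gene 49414 bases from Gpr18 in the same host gene, went the other way with 49.53 to 89.75 in old and 105.6 to 125.5 in young libraries, a log2 difference of -0.83 ± 0.21 (SE; limma adjusted p = 0.0119).

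**Figure D3:**
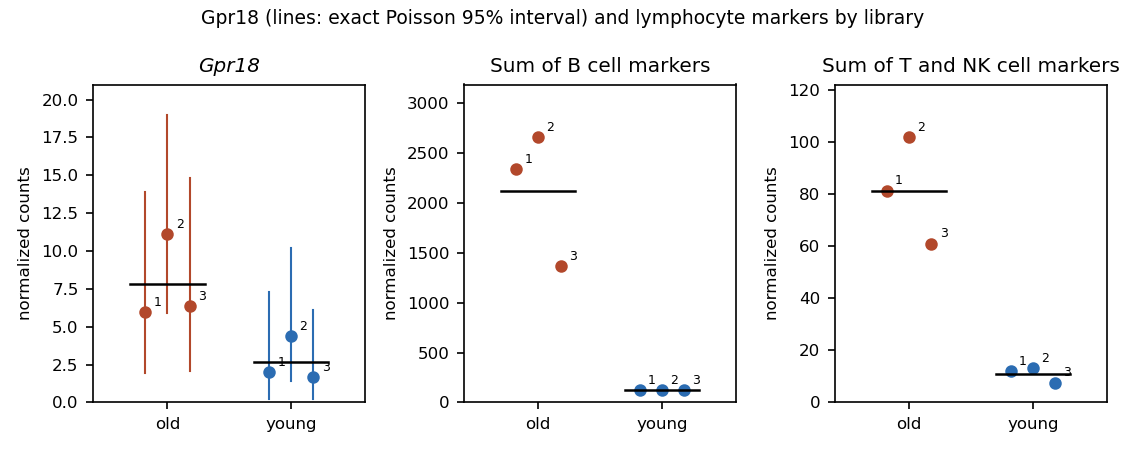
Normalized counts (vertical axes, from 0) by library of Gpr18, with exact Poisson 95% intervals as vertical lines, of the sum of 8 B cell markers and of the sum of 10 T and NK cell markers, in old (red) and young (blue) cultures; bars are means of 3 libraries. The Gpr18 intervals of single libraries overlap within and between the ages, whereas both marker sums are separate between the ages. Old replicate 2 is highest in all panels, as it also is for the macrophage, neutrophil and mast cell marker sums, which are not drawn.

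The leukotriene B4 receptors were scarce, and no age difference was detectable at this depth. Ltb4r1 had 16, 16 and 7 reads in old and 14, 7 and 16 in young libraries, or 19.12, 13.68 and 8.891 against 14.08, 6.142 and 13.52 normalized counts. The groups overlapped over most of their range. The log2 difference was 0.30 ± 0.45 (SE; limma adjusted p = 0.634), and the ratio of summed reads per size factor, 1.25, had an exact conditional interval of 0.777 to 2.02 for counting error. It turned to -0.05 without young replicate 2. With array quality weights it was 1.06 and passed (limma adjusted p = 0.0193). Ltb4r2 had 2 reads in young replicate 1 and 0 in the other libraries, where the limit of 3 reads that a count of 0 allows comes to 2.535 to 3.81 normalized counts. Both groups were at or under that limit, so no fold is given. Cideb, the third neighbouring gene looked at, had 4 reads in old and 2 in young libraries and shares 1136 exonic bases with Nop9 on the other strand.

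The genes with library profiles nearest to each receptor were sought among 10709 protein-coding genes by the root mean square difference of centred log2 profiles over 6 libraries. For Fpr2 these were Sphk1, a sphingosine kinase gene (0.038), Cybb, the catalytic subunit of the phagocyte NADPH oxidase (0.057), and Cnr2, a cannabinoid receptor gene (0.063). Cybb, for example, had 22861 to 25649 normalized counts in old and 11240 to 13701 in young libraries, and young replicate 3 was again the highest of its group. For Fpr1 they were Pqlc3 (0.03), the sugar phosphate transporter gene Slc37a2 (0.033) and the galactosyltransferase gene Ggta1 (0.039). For Cmklr1 the nearest were the zinc finger gene Zfp84 (0.013) and the kinesin light chain gene Klc4 (0.025). The nearest profile to Ltb4r1, that of Abcb6, was 0.18 away. These are likenesses over 6 libraries of 2 ages and carry no test.

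The protein ligand genes that could be tested rose. Of 11 ligand genes listed, 6 have values and 3 were tested. All 3 passed as higher in old, with a median log2 difference of 1.28, against 17.9% higher over all tested genes. Anxa1, the annexin A1 gene whose protein acts on Fpr2, had 7723 to 9988 normalized counts in old and 2960 to 3378 in young libraries, a log2 difference of 1.53 ± 0.11 (SE; limma adjusted p = 5.41e-06). Saa3, of the serum amyloid A family that includes Fpr2 agonists, was 2.43-fold higher. Psap, which encodes prosaposin, described as a ligand precursor for Gpr37, had 84846 to 101469 against 45866 to 54775 normalized counts and was 1.92-fold higher. The cathelicidin gene Camp, source of another Fpr2 ligand and named after its values were seen, had 2 reads in young replicate 1 and 0 elsewhere.

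Related receptors divided. Of 6 tested, 3 passed as higher and 1 as lower, with a median of 0.63, against 17.9% higher and 17.6% lower over all tested genes. Ptafr, the receptor gene for platelet-activating factor, had 3281 to 3934 normalized counts in old and 1170 to 1586 in young libraries, 2.79-fold higher, with a log2 difference of 1.49 ± 0.12 (SE; limma adjusted p = 1.45e-05). Ccrl2, which binds chemerin beside Cmklr1 without signalling, was 2.04-fold and Gpr132, a receptor for oxidized fatty acids, 2.02-fold higher in old. Gpr183 was the one that fell. The cysteinyl leukotriene receptor genes Cysltr1 (0.19) and Cysltr2 (0.25), named after their values were seen, had log2 differences that did not pass.

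Enzymes that make or break down the ligands also moved both ways. Of 12 tested, 6 were higher and 2 lower in old, with a median of 0.36, against 17.9% higher and 17.6% lower over all tested genes. Ptgr1, a reductase gene whose enzyme inactivates leukotriene B4 and prostaglandins, had 4167 to 4938 normalized counts in old and 1187 to 1404 in young libraries, a log2 difference of 1.84 ± 0.09 (SE; limma adjusted p = 6.3e-07). Alox5, whose 5-lipoxygenase is needed for leukotrienes, lipoxins and resolvins, had 786.2 to 861.6 in old and 344.8 to 386.3 in young libraries, a 2.3-fold difference. Pla2g4a, whose phospholipase releases arachidonic acid, rose 1.54-fold. Ptgs1, which encodes cyclooxygenase-1, went the other way with 271.8 to 298.3 in old and 628.2 to 710.7 in young libraries. Cyp4f18, a leukotriene B4 hydroxylase gene named after its value was seen as the other lower member, stood at -1.22 ± 0.36 (limma adjusted p = 0.0263).

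Genes that couple receptors to their signals or switch them off moved in both directions. Of 21 tested, 7 were higher, 3 lower and 11 did not pass, with a median of 0.11, against 17.9% higher and 17.6% lower over all tested genes. The inhibitory G protein subunit genes Gnai2 (0.14) and Gnai3 (-0.17), through which most of these receptors signal, did not pass, and both are named after their values were seen. Arrb1, the beta-arrestin 1 gene, had 2722 to 2914 normalized counts in old and 1471 to 1578 in young libraries, 1.83-fold higher in old (log2 difference 0.87 ± 0.06, SE; limma adjusted p = 7.37e-06). Arrb2, its relative and also named after its value was seen, had 1311 to 1468 in old and 1702 to 1777 in young libraries (log2 difference -0.36, limma adjusted p = 0.00308). Rgs1, which shortens G protein signals, was 2.62-fold and Rgs14 1.35-fold higher in old. Gna15, a G protein subunit gene that couples many receptors to phospholipase C, fell by 0.96 on the log2 scale (limma adjusted p = 7.74e-05).

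**Figure D4:**
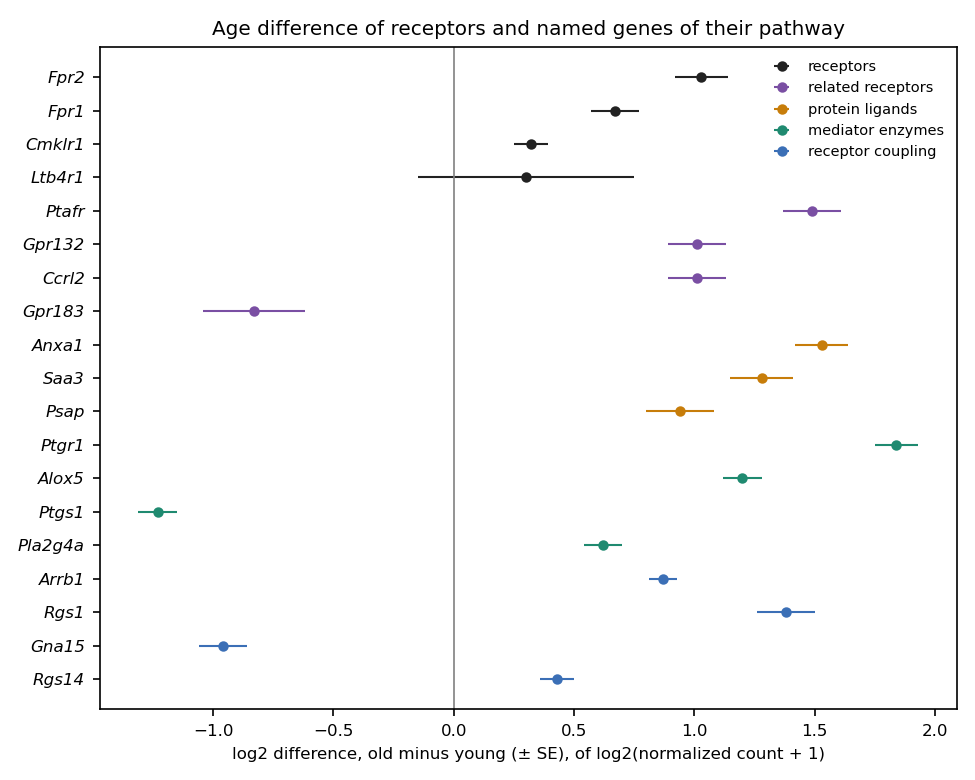
Log2 difference, old minus young, of log2(normalized count + 1) with its standard error (horizontal axis) for the 4 tested receptors and the named genes of the 4 lists around them. Fpr2, Fpr1 and Cmklr1 lie to the right of 0, the bar of Ltb4r1 crosses 0, and Ptgs1, Gna15 and Gpr183 lie to the left.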

How the data were processed

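Messenger RNA of 3 old and 3 young macrophage cultures was sequenced from libraries made with the TruSeq protocol, per the labels. The deposited values are of the kind signal: the authors scaled each library's gene counts by its size factor. The submitters' processing notes name DESeq2 and mm10 without versions. For the aligner, read counter, annotation release and strand setting, the entry is: not given in the sources used here. Each column held whole multiples of 1 step (100% of values within 0.01 reads), so reads were recovered by division. Symbols were found for 19917 gene identifiers, and 56 stayed without. Positions and exon lengths are from GENCODE M21.

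The main test was limma 3.58.1 in R 4.3.3 with a variance trend on log2(normalized count + 1), over 11795 genes with a mean of at least 10, adjusted with Benjamini-Hochberg at 0.05. On this scale the change of a low gene is understated. Fold values are ratios of mean normalized counts. Single values used exact two-sided permutation over libraries (scipy 1.17.1). The test was first run on simulated data. edgeR 4.0.16 and DESeq2 1.42.0 served as alternatives on recovered reads. Other alternatives were the pseudocount, filter, normalization, trend, library weights, replicate block, protein-coding genes only and libraries left out. Unfiltered count tests, unfiltered fits with a library left out and ratios to marker genes were added after the data were seen.

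Named genes were the receptors, up to 4 passing genes per list with the smallest adjusted p, the host and neighbouring genes, and the 3 nearest profiles, of which 1 is not reported here. The members and lists were chosen with earlier results of these data known. No pair of libraries agreed within sampling noise: the median chi-square per gene was 1.49 to 4.67 times its noise value within ages and 8.57 to 18.9 times between ages.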

Additional observations from a re-analysis of the deposited data

How the results depend on the processing

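The count of receptors that passed was 3 in the reported fit and 3 or 4 under every alternative run, and Fpr1, Fpr2 and Cmklr1 kept their direction and passed in each of the 21 alternatives with a test. Over these and the ratio to Csf1r, the log2 difference of Fpr2 ranged from 0.77 to 1.17, that of Fpr1 from 0.41 to 0.84 and that of Cmklr1 from 0.06 to 0.37, with the lowest value of each from the ratio to Csf1r. The fourth call was Ltb4r1 with array quality weights and Gpr18 with protein-coding genes alone and no filter. The filter keeps Gpr18 out of the reported fit. Without the filter but over all genes, Gpr18 was tested and did not pass (adjusted p = 0.104 by limma, 0.108 by edgeR and 0.234 by DESeq2). Leaving out 1 library gave 2940 to 5660 passing genes, 3 receptors each time and 22 to 30 genes of the surrounding lists (25 in the reported fit). The number of genes passing over the whole table, 4183 in the reported fit, moved to 7634 with array quality weights, to 6960 with both libraries numbered 3 left out and to 2643 with the replicate number as a block. No pairing by replicate number was seen: deviations of same-numbered libraries from their group means correlated at -0.382, -0.361 and -0.676. With 3 libraries per age, and both libraries numbered 3 lying toward the other age, these correlations cannot exclude a pairing. With the replicate block 3 receptors still passed, Cmklr1 with an adjusted p of 0.0443 (limma). With 1 library left out, the log2 difference of Ltb4r1 ranged from -0.05 (without young replicate 2) to 0.57 (without old replicate 3). Gpr183 lost its call without young replicate 2 (-0.78, limma adjusted p = 0.0503), and Ubac2 passed with both libraries numbered 3 left out (0.29, limma adjusted p = 0.0147). The cause of these changes was not tested. Depth limits Gpr18 and the leukotriene B4 receptors, with 23 old and 9 young reads for Gpr18, 39 and 37 for Ltb4r1 and 0 and 2 for Ltb4r2.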
